A study of Mus musculus with 36 samples.

Results

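Transcripts of 8 pituitary genes were followed across RNA sequencing libraries of the mouse cochlea, where sound is turned into nerve signals: Gh, Prl, Pomc, Cga, Tshb, Fshb, Pou1f1 and Ghrhr. These are 8 of 39017 genes in the count table. They were listed by name and selected on measured values: single libraries held very high Gh. Those Gh levels are therefore given as a description. All 8 identifiers were present in the table.

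The mice were of the strain CBA/Sca and aged 12 weeks. They had been sham-operated or adrenalectomized (ADX), which takes away the glands that secrete glucocorticoids. Cochleae of each status were taken every few hours of the circadian day, at CT04, CT08, CT12, and then CT16, CT20 and CT24. Each of the 12 groups had 3 libraries, which made 36. The series asks which cochlear rhythms depend on adrenal glucocorticoids. Total counts per library ran from 18999408 to 28995197, and levels are given as counts-per-million values (CPM). The 17 cochlear markers listed for the check of the tissue were all detected in every library. Their summed level lay between 5868 and 8716 CPM, and Coch, which encodes cochlin of the inner ear matrix, had a median of 4802 CPM. The tissue label thus had its defining markers in all 36 libraries.

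The anterior pituitary is a gland beneath the brain whose cell types each secrete their own hormone. Somatotrophs make growth hormone (Gh), lactotrophs prolactin (Prl), corticotrophs the corticotropin precursor (Pomc), thyrotrophs thyrotropin (Cga with Tshb) and gonadotrophs the gonadotropins (Cga with Fshb). The transcription factor POU1F1, also called PIT-1, is needed for somatotrophs, lactotrophs and thyrotrophs, and GHRHR is the somatotroph receptor through which the hypothalamus drives growth hormone. Glucocorticoids feed back on corticotrophs and lower Pomc there.

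Promoters are shown for 3 members: Prl, whose level followed Gh most closely, Pomc, whose level relative to Gh varied most among the hormones with high counts, and Pou1f1, the transcription factor of the list. Each window runs from 250 bases before to 50 bases after the RefSeq start site on GRCm38.p6, 5′ to 3′ on the gene's strand. Capitals mark TATNCAT on either strand, the core letters of sites bound by POU1F1-type factors. The windows are chr13:27057320-27057619 (+) for Prl, chr16:65520262-65520561 (+) for Pou1f1 and chr12:3954695-3954994 (+) for Pomc.
Prl: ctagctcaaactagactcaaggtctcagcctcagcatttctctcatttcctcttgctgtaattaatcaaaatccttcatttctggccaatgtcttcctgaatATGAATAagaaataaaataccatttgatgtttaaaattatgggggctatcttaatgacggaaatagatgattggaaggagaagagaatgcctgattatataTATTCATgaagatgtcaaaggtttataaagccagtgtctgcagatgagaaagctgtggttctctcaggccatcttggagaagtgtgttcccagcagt
Pou1f1: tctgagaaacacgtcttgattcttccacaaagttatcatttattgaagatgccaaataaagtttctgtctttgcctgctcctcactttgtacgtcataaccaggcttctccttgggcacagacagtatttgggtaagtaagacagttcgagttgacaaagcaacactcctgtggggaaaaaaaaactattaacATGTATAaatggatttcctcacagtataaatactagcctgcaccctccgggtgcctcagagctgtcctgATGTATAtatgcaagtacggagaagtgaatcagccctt
Pomc: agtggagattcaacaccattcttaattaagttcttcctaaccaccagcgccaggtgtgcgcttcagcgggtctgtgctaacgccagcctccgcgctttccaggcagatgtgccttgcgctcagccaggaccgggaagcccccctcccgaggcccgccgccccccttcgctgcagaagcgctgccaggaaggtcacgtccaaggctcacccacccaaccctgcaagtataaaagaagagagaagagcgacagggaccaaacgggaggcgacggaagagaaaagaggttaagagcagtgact
The letters TATNCAT stood in 8.84% of the 32851 RefSeq promoter windows of this length. The Prl window held them at -148 on the minus strand and at -47 on the plus strand, counted from the start site. In the Pou1f1 window both matches were on the minus strand, at -57 and 13. RefSeq gives Pou1f1 another window, chr16:65523059-65523358, which had neither TATNCAT nor TATAAA. The windows of Pomc, Cga, Tshb and Fshb did not have these letters. TATAAA, the letters of a TATA box, overlapped a TATNCAT match in Pou1f1 at -54 and stood in 13.6% of all windows. Its match closest upstream of the start site lay at -24 in Prl, -25 in Pomc, -30 in Cga, -30 in Fshb, -27 in Tshb and -33 in Pou1f1. A match describes the letters of the window and does not show a bound site. RefSeq windows matched 6 of the 8 members, all but Gh and Ghrhr.

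Gh (ENSMUSG00000020713, GRCm38 chromosome 11, 106300271 to 106301865, minus strand) was read in every library, at no fewer than 12 counts. Its level ran from 0.589 CPM in sham CT08 replicate 1 over a median of 4.47 CPM to 1185 CPM in sham CT16 replicate 3. That library alone held 30586 Gh counts, 60.6% of all Gh counts in the 36 libraries. Sham CT08 replicate 3 followed with 496 CPM and ADX CT24 replicate 2 with 129 CPM. The next were sham CT08 replicate 2 (84.5 CPM) and ADX CT24 replicate 1 (60.7 CPM). These 5 libraries stood above 50 CPM. The next was ADX CT20 replicate 1 with 18.3 CPM, so the line at 50 CPM fell in a gap between 60.7 and 18.3 CPM.

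In the groups with libraries of high Gh, the 3 replicates differed widely. At CT08 the sham libraries, replicates 1 to 3, held 0.589, 84.5 and 496 CPM, and the ADX libraries 6.56, 2.21 and 2.13 CPM. At CT16 the sham libraries held 4.63, 4.86 and 1185 CPM and the ADX libraries 2.78, 2.24 and 4.40 CPM. At CT24 the sham libraries held 1.33, 13.9 and 1.60 CPM and the ADX libraries 60.7, 129 and 4.47 CPM. The lowest and the second highest Gh library of the series were thus replicates of the same group, sham CT08, 842-fold apart. The groups overlapped at CT08 and CT24, while at CT16 the sham libraries lay above the ADX libraries, 2 of them by little.

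The other times held no library above 50 CPM. At CT04 Gh was 8.90, 0.822 and 2.55 CPM in sham and 4.48, 4.54 and 1.75 CPM in ADX. At CT12 it was 1.15, 1.19 and 4.97 CPM in sham and 3.34, 0.934 and 13.6 CPM in ADX. At CT20 it was 5.55, 3.06 and 12.6 CPM in sham and 18.3, 2.43 and 6.74 CPM in ADX. Sham and ADX overlapped at each of these 3 times. Ordered by median, the 12 groups ran from sham CT12 (1.19 CPM) to sham CT08 (84.5 CPM), and 10 of the 11 pairs of neighbours in that order overlapped.

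**Figure D1:**
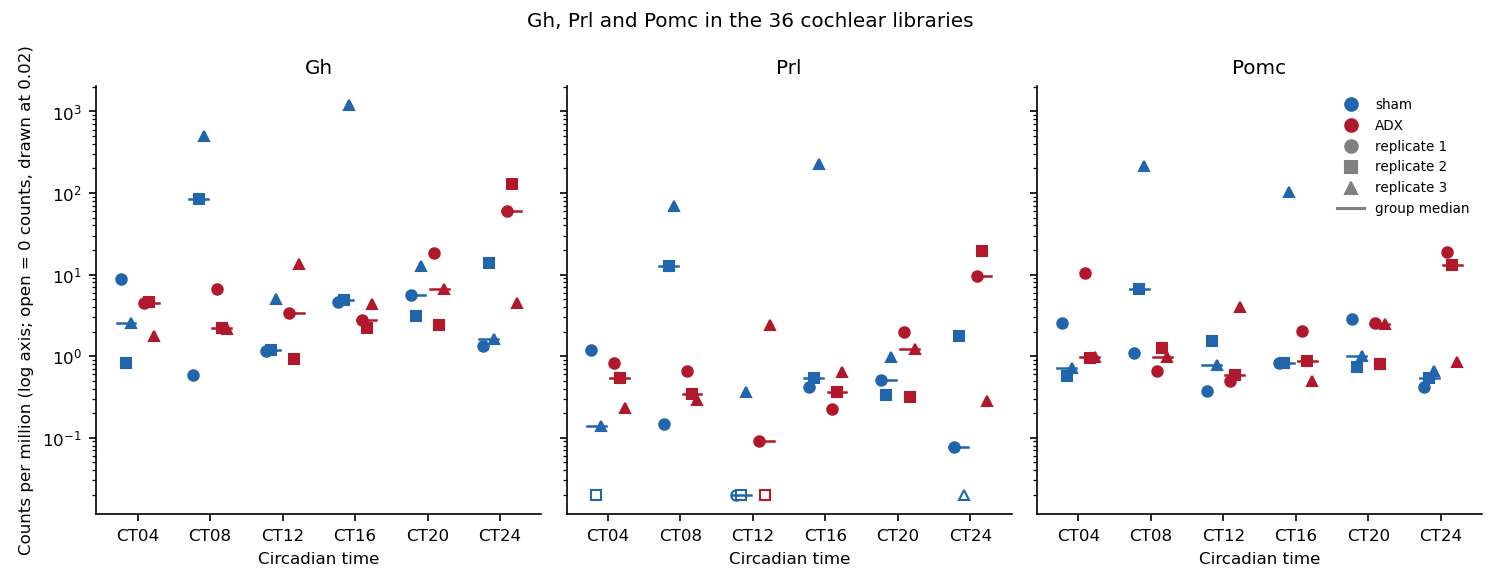
Gh, Prl and Pomc in CPM (log axis) by circadian time, with 1 point per library, colour for status, shape for replicate and a bar for the group median. Gh stood above 50 CPM in 5 of 36 libraries, 2 at sham CT08, 1 at sham CT16 and 2 at ADX CT24, and other replicates of those groups stood at 4.86 CPM or less.

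Prl (ENSMUSG00000021342, chromosome 13, 27057570 to 27065205, plus strand) ranked the libraries at the top as Gh did. Its level was 225, 68.4, 19.6, 12.6 and 9.73 CPM in the 5 libraries of high Gh, listed from the highest Gh to the lowest. The sixth library, ADX CT12 replicate 3, held 2.42 CPM, the median of all 36 was 0.390 CPM, and 5 libraries held 0 counts. The same 5 libraries therefore led for both hormones, in the same order.

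Pomc (ENSMUSG00000020660, chromosome 12, 3954951 to 3960642, plus strand) was read in all libraries, and its order was another. It was highest in sham CT08 replicate 3, at 216 CPM. Sham CT16 replicate 3 followed with 104 CPM, then ADX CT24 replicate 1 with 18.7 CPM and ADX CT24 replicate 2 with 13.2 CPM. The fifth was ADX CT04 replicate 1, with 10.5 CPM, a library whose Gh of 4.48 CPM was near the median. Sham CT08 replicate 2 came after it with 6.64 CPM, and the median of all 36 libraries was 0.956 CPM. Among the ADX libraries the lowest Pomc was 0.497 CPM in CT12 replicate 1, and among the sham libraries 0.368 CPM in CT12 replicate 1.

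Cga encodes the alpha subunit that thyrotropin and the gonadotropins share (ENSMUSG00000028298, chromosome 4, 34893779 to 34907370, plus strand). It was 24.21, 8.26, 2.46, 1.76 and 0.962 CPM in the 5 libraries of high Gh, in their order by Gh, and at most 0.230 CPM in the other 31. In 16 libraries it had 0 counts. Fshb, the beta subunit of follicle-stimulating hormone (ENSMUSG00000027120, chromosome 2, 107056140 to 107059656, minus strand), took the same order with 6.78, 1.0, 0.417, 0.308 and 0.111 CPM. It reached at most 0.0772 CPM elsewhere and had 0 counts in 19 libraries. Sham CT16 replicate 3 held 76.8% of all Fshb counts.

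Tshb, the beta subunit of thyrotropin (ENSMUSG00000027857, chromosome 3, 102775465 to 102782718, minus strand), stayed low. Sham CT16 replicate 3 held 25 counts of it, or 0.968 CPM, and sham CT08 replicates 3 and 2 had 0.842 and 0.220 CPM. Both ADX CT24 libraries of high Gh held 1 count of it, and 14 libraries held 0.

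Pou1f1 (ENSMUSG00000004842, chromosome 16, 65520511 to 65535005, plus strand) had 44 counts (1.70 CPM) in sham CT16 replicate 3. The next libraries were sham CT08 replicate 3 with 0.421 CPM and ADX CT24 replicate 2 with 0.334 CPM. It had 0 counts in 20 libraries, and only sham CT16 replicate 3 had 10 counts or more. Ghrhr (ENSMUSG00000004654, chromosome 6, 55376295 to 55388530, plus strand) was 3.37, 1.05 and 0.542 CPM in those same 3 libraries. It had at least 1 count in each of the 36, with a median of 0.123 CPM. Where a library had 0 counts of a member, its depth allowed a level of up to 3 counts in counting error alone. That was between 0.103 and 0.147 CPM.

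Of the 8 members, 7 were highest in sham CT16 replicate 3 and Pomc in sham CT08 replicate 3. Together the members took 0.155% of the counts of sham CT16 replicate 3, 0.0793% of those of sham CT08 replicate 3 and 0.000196% of those of sham CT08 replicate 1. In bulk tissue, more cells of a type and more RNA per cell cannot be told apart.

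The makeup of the hormone reads was compared as reads per 100 Gh reads. Among the 5 libraries of high Gh, Prl stood at 19.03, 13.8, 15.24, 14.9 and 16.04 reads per 100 Gh reads, ordered from the highest Gh to the lowest. That was a 1.38-fold range across libraries whose Gh differed from 60.7 to 1185 CPM. The exact binomial 95% intervals of sham CT16 replicate 3 (18.5 to 19.6) and sham CT08 replicate 3 (12.99 to 14.6) did not meet, so the ratio was narrow but not constant beyond counting error. Cga stood between 1.59 and 2.08 reads per 100 Gh reads in these 5 libraries, a 1.31-fold range.

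Pomc did not keep a fixed ratio to Gh. It stood at 8.80 reads per 100 Gh reads in sham CT16 replicate 3, 43.6 in sham CT08 replicate 3, 10.2 in ADX CT24 replicate 2, 7.85 in sham CT08 replicate 2 and 30.9 in ADX CT24 replicate 1. The range was 5.55-fold, and both ADX values lay within the range of the 3 sham values. Sham CT08 replicates 2 and 3, of the same status and time, were the lowest and the highest of the 5. Over all 36 libraries Pomc ran from 3.91 reads per 100 Gh reads in sham CT24 replicate 2 to 234 in ADX CT04 replicate 1. The 95% interval of the latter was 184 to 300.0, from 227 Pomc and 97 Gh counts.

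The other members were counted in smaller numbers. In the 5 libraries Fshb stood between 0.183 and 0.572 reads per 100 Gh reads, Ghrhr between 0.183 and 0.421, Pou1f1 between 0.0849 and 0.259 and Tshb between 0.0324 and 0.260. The 95% interval of Fshb in sham CT16 replicate 3 (0.490 to 0.664) lay above that in sham CT08 replicate 3 (0.121 to 0.315). In the other 31 libraries the median of Ghrhr was 3.2 reads per 100 Gh reads, against 0.284 in the 5. Pomc and Tshb also had higher medians there, 31.4 against 10.2 and 0.306 against 0.0817. Prl, Cga, Fshb and Pou1f1 went the other way, with lower medians in the 31 than in the 5. For Ghrhr the lowest value among the 31 was 0.420, just under the highest of the 5, 0.421. Ghrhr had 10 counts or more in only 3 libraries. The sets were divided by Gh, which is also the denominator of each ratio, so nothing is read from these medians.

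**Figure D2:**
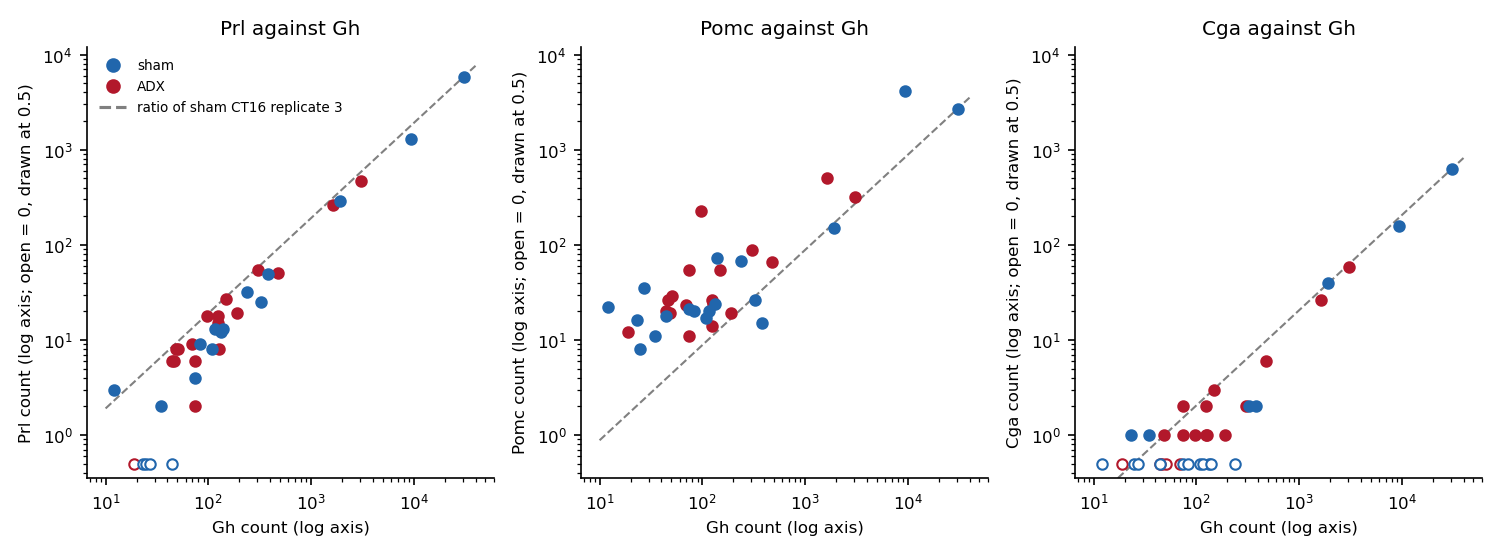
Counts of Prl, Pomc and Cga against counts of Gh in each of the 36 libraries (both axes log), coloured by status, with a dashed line at the ratio of sham CT16 replicate 3. In the 5 libraries of high Gh the points of Prl and Cga lie near the line, while Pomc runs from 7.85 to 43.6 reads per 100 Gh reads and lies above the line in most libraries of low Gh.

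Per gene length, Gh made up 77.3, 65.2, 78.9, 80.2 and 69.2% of the length-scaled counts of the 8 genes in the 5 libraries. Prl was next in 3 of them, with 14.3, 11.7 and 11.6%. In sham CT08 replicate 3 and ADX CT24 replicate 1 Pomc came second, with 24.33 and 18.3%. Cga lay between 1.40 and 2.15%. In ADX CT04 replicate 1 Pomc led with 61.9% against 30.9% for Gh. It also led in sham CT08 replicate 1, with 53.2% against 33.9%, and in sham CT12 replicate 2, with 51.6% against 46.5%. These shares rest on few reads, 22 Pomc and 12 Gh counts in sham CT08 replicate 1 and 35 and 27 in sham CT12 replicate 2.

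**Figure D3:**
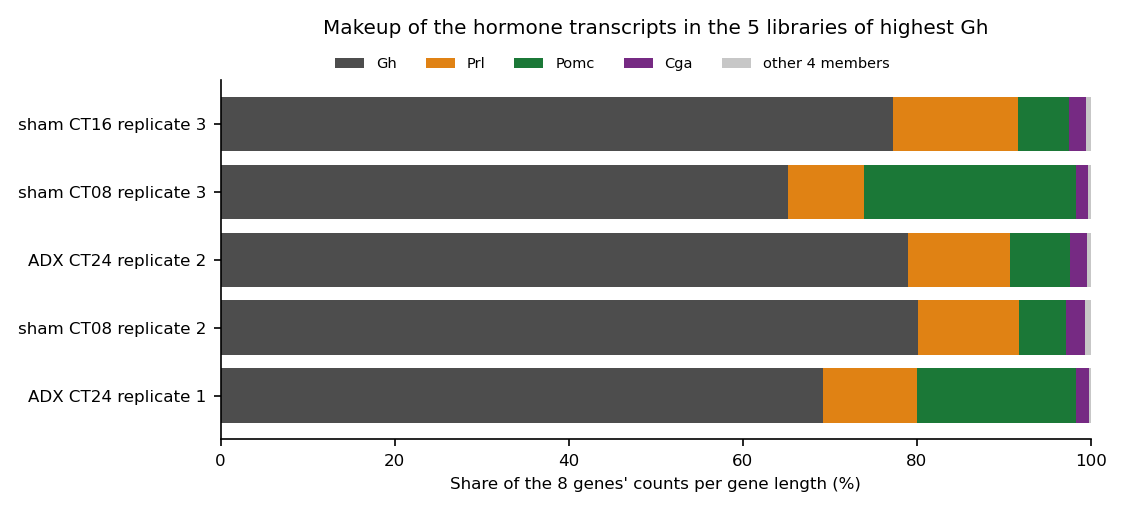
Share of each hormone transcript in the length-scaled counts of the 8 genes, in percent, for the 5 libraries of Gh over 50 CPM, ordered by Gh. Gh takes 65.2 to 80.2%, and the share of Pomc varies from 5.39 to 24.33%.

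The genes most like Gh were ranked by Pearson's r of log2(CPM + 0.5) over the 36 libraries among 23433 genes. Of the first 10, 6 were members: Prl (r = 0.98), Cga (0.91), Pomc (0.87), Fshb (0.81), Pou1f1 (0.80) and Ghrhr (0.80). Spearman's rho was 0.93, 0.68, 0.59, 0.60, 0.52 and 0.51 for them. The other four were Dlk1, a transmembrane ligand (r = 0.86, rho = 0.53), Irs4, an insulin receptor substrate (0.83, 0.67), Rtl1, a retrotransposon-derived gene (0.79, 0.39), and Six6, a homeobox factor of eye and pituitary development (0.79, 0.58). Tshb came 11th (0.77, 0.42). The values share the libraries and rest on the few high ones. Without the 5 libraries of high Gh, r was 0.91 for Prl, 0.61 for Cga, 0.39 for Pomc, 0.28 for Dlk1, 0.46 for Fshb, 0.21 for Pou1f1 and 0.04 for Rtl1. Prl alone of these kept an r above 0.9 in both sets.

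Other genes of the pituitary were looked at by list. Of 13 transcription factors listed, Six6 had 14 counts in sham CT16 replicate 3, Nr5a1, the factor of gonadotrophs, 11, and Tbx19, which activates Pomc in corticotrophs, 22. Tbx19 was highest where Pomc was, at 1.0 CPM in sham CT08 replicate 3. The summed level of the 13 was 75.4 to 90.6 CPM in the 5 libraries and 71.6 to 102 CPM in the other 31, and most of it was Gata2 and Isl1, with medians of 41.6 and 34.1 CPM. Six6, Nr5a1 and Tbx19 were named after their values were seen.

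Among 9 receptors of hypothalamic and feedback factors, Gnrhr, the gonadotroph receptor, had 20 counts (0.775 CPM) in sham CT16 replicate 3 and at most 0.0794 CPM in the 31 other libraries. Drd2, through which dopamine restrains prolactin, was highest in the same library at 0.581 CPM, against up to 0.502 CPM in the 31 others. Crhr1, the receptor through which corticotrophs sense corticotropin-releasing hormone, had 13.1 CPM in sham CT16 replicate 3, near its median of 14.2 CPM. Sstr5 was highest in that library too. Trhr was highest in ADX CT20 replicate 3, which is not among the 5, and Ghsr in sham CT08 replicate 3. The list's sum in the 5 libraries, 13.5 to 21.6 CPM, lay within that of the 31 others, 6.87 to 27.8 CPM. Gnrhr, Drd2, Sstr5, Trhr and Ghsr were named after their values were seen.

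The neural lobe hormone genes Avp and Oxt stayed at or under 0.217 and 0.536 CPM in every library. Their sum was 0.105 to 0.444 CPM in the 5 libraries and 0.0441 to 0.715 CPM in the others. A row matched 2 of the 3 genes of that list, and Lhb was not analysed here. Of 10 genes of secretory granules and prohormone processing, Scg2, which encodes secretogranin II, reached 20.5 CPM in sham CT16 replicate 3 against a median of 3.71 CPM. It was 11.6 CPM in sham CT08 replicate 3, 2.73 CPM in sham CT08 replicate 2 and up to 13.5 CPM in the libraries of lower Gh. Scg2 was named after its values were seen. The sum of the 10 was 694 to 777 CPM in the 5 libraries and 641 to 858 CPM in the others. Cpe, Pam, Chgb and Chga, the 4 highest of the list, had medians of 270, 147, 107 and 74.3 CPM.

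Tissues other than pituitary were measured the same way. The cochlear markers summed to 6234 to 7653 CPM in the 5 libraries, within the range of the other 31. Skeletal muscle markers, 15 genes, summed to 116 to 133 CPM in the 5 libraries and to 911.9 CPM in ADX CT20 replicate 3, where Gh was 6.74 CPM. Pvalb alone held 83.04 CPM in sham CT16 replicate 3 and 107.7 CPM in sham CT08 replicate 3, its lowest and highest of the 5. Pvalb made up most of the muscle sum in each of the 5, so that sum says little about the other muscle genes there. Brain markers, 13 genes of neurons and oligodendrocytes, summed to 2000 to 2411 CPM in the 5 libraries and 1721 to 3271 CPM in the others. Erythroid markers, 9 genes, summed to 21609 to 27411 CPM and 13502 to 31133 CPM. None of these 4 sums placed the 5 libraries outside the others. Whether pituitary tissue in a sample lay behind its high values was not tested.

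Averaged over the day, no tested member was called between ADX and sham. Gh had a median of 4.74 CPM in sham (0.589 to 1185 CPM) and 4.43 CPM in ADX (0.934 to 129 CPM; n = 18 each). The log2 fold changes, ADX minus sham, were -1.28 ± 0.76 (SE) for Gh, -0.92 ± 1.27 for Prl, -0.69 ± 0.77 for Pomc and -0.52 ± 0.57 for Ghrhr, with -0.52 for Cga and -0.74 for Fshb. For Cga and Fshb the sham CT12 group had 0 counts in all 3 libraries, so their fitted values depend on the prior count and carry no SE here. By the quasi-likelihood test of edgeR, adjusted by Benjamini-Hochberg over 22556 genes, 0 of 6 tested members passed, against a background of 0.718% of all genes tested. The adjusted p in edgeR ran from 0.434 for Gh to 0.989 for Fshb, and 0 members had an unadjusted p under 0.05. DESeq2 called 0 members as well (background 2.86%), with adjusted p not assigned for Fshb and Ghrhr. Tshb and Pou1f1 did not pass the filter on low counts, and Cga, Fshb and Ghrhr passed it only through libraries of high Gh.

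The median log2 fold change of the 6 was -0.72, against 0.00 for all genes tested, and its sign came from few libraries. Without sham CT16 replicate 3 the values were -0.21 for Gh, 0.30 for Prl, 0.21 for Pomc, 1.25 for Cga, 0.72 for Fshb and 0.04 for Ghrhr. Without the 5 libraries of high Gh they were 0.52, 0.69, 0.62, 2.02, 0.95 and 0.17, all positive, and again 0 of 6 passed in edgeR (background 0.0399%). Few counts of Cga and Fshb were left there. That set leaves 1 library each at sham CT08 and ADX CT24.

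**Figure D4:**
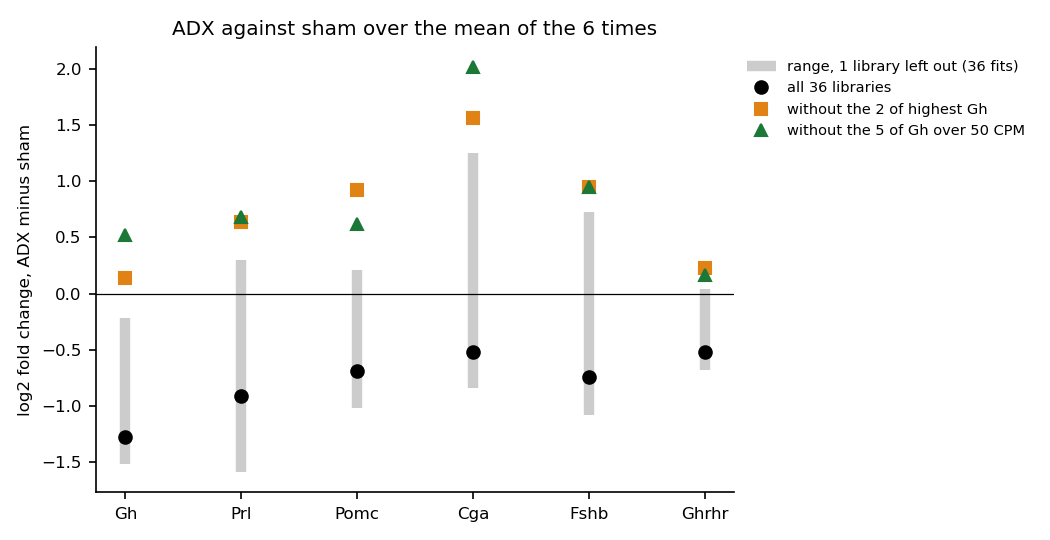
log2 difference of ADX minus sham, averaged over the 6 times, for the 6 tested members (black, all 36 libraries), with the grey bar for the range over 36 fits that each left out 1 library. All 6 values are negative with all libraries, where 0 of them passed, and positive without the 5 of high Gh (green), where Cga and Fshb had few counts.

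At single times, 0 of 36 pairs of a tested member and a time passed in edgeR, where the background was 0% at CT04, CT08, CT12, CT16 and CT24 and 0.00443% at CT20. The fitted log2 fold change of Gh was -5.65 at CT08, -6.96 at CT16 and 3.51 at CT24, with edgeR adjusted p of 0.9999, 0.317 and 0.845. Those are the 3 times with libraries of high Gh. For Pomc the values were -6.29, -4.95 and 4.31 (edgeR adjusted p = 0.880, 0.445 and 0.821). At an unadjusted p under 0.05 there were 4 members at CT08, 6 at CT16, 3 at CT24 and 0 at the other times, beside 4.28, 7.95 and 5.74% of all genes at CT08, CT16 and CT24. The libraries that led to the choice of the members enter these 3 comparisons, and nothing is read from the counts. DESeq2 called 3 pairs, Gh at CT16 (background 0.0887%) and, at CT12 (background 0.031%), Cga and Fshb, whose sham CT12 libraries all had 0 counts. At CT16 DESeq2 assigned no adjusted p to the other 5 tested members. Leaving out sham CT16 replicate 1, edgeR called Ghrhr at CT16.

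The test of whether the ADX difference depended on the time called 0 of 22556 genes in edgeR (background 0%, 1089 at an unadjusted p under 0.05). Among the 6 members the edgeR adjusted p ran from 0.882 to 0.969, and 5 had an unadjusted p under 0.05, beside 4.83% of all genes. The libraries that led to the choice of the members enter this test as well, so nothing is read from these counts.

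The test of any difference between the 12 groups called 6 of 6 members in edgeR, with adjusted p from 1.38e-04 for Prl to 0.0156 for Ghrhr, against a background of 22.01% of genes. The members were picked for values that enter this test, so nothing is read from the count. Without the 5 libraries of high Gh, 0 of 6 passed (background 14.69%) and 0 had an unadjusted p under 0.05, with edgeR adjusted p from 0.363 for Pomc to 0.828 for Prl. With only the 2 libraries of highest Gh left out, Gh, Prl, Pomc and Cga passed and Fshb and Ghrhr did not (background 16.98%).

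The series also asks for rhythms of 24 h. In sham, 5 of 6 members passed the cosine test in edgeR, against a background of 16.08%: Gh, Prl, Pomc, Cga and Fshb, with adjusted p from 0.00941 to 0.0264. Ghrhr did not (edgeR adjusted p = 0.0776). The members were picked for libraries that enter this test too, so nothing is read from the count. The fitted peak-to-trough change was 7.22 on the log2 scale for Gh, with a peak at 12.6 h, 7.97 and 12.8 h for Prl, and 7.27 and 11.5 h for Pomc. The fitted peaks fell near CT12, between the times of the high libraries, while sham CT12 had the lowest median of Gh of all 12 groups and 0 counts of Prl in 2 of 3 libraries. Without the 5 libraries of high Gh, 0 members passed (background 11.44%) and 0 had an unadjusted p under 0.05, and the fitted peak-to-trough change was 1.89 for Gh and 0.10 for Pomc. Without the 2 of highest Gh, Cga alone passed (background 11.94%). DESeq2 called Gh, Prl and Pomc in sham (background 18.51%).

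In ADX, 0 of 6 members passed the same test in edgeR (background 9.40%), with adjusted p from 0.223 for Gh to 0.732 for Fshb and 0 members at an unadjusted p under 0.05. The fitted peak of Gh was at 23.6 h, at the time of the ADX libraries of high Gh. Without the 2 sham libraries of highest Gh, which are not ADX libraries but share the fitted spread, Gh, Prl, Pomc and Cga passed in ADX (background 9.27%), and without all 5 libraries 0 did (background 8.47%). The ADX libraries of high Gh enter this test, so nothing is read from these counts of members. With all 36 libraries DESeq2 called 0 (background 11.57%).

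The members were chosen for libraries that stood apart from their replicates, so their spread is given as a description. The fitted biological coefficient of variation was 113% for Gh, 143% for Prl, 106% for Pomc, 155% for Cga, 145% for Fshb and 70.7% for Ghrhr, against a median of 8.26% over the 22556 genes.

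Receptors and targets of the hormones were read in the cochlea without a called ADX difference. Ghr, the growth hormone receptor, had 37.2 to 47.6 CPM with a median of 40.6 CPM (log2 difference -0.03 ± 0.03, SE; edgeR adjusted p = 0.682). In the 2 libraries of highest Gh it was 38.5 and 38.6 CPM. Igf1, the growth factor induced by growth hormone, had a median of 112 CPM and differed by -0.05 ± 0.04 on the log2 scale (edgeR adjusted p = 0.585). It was 95.8 CPM in sham CT16 replicate 3 and 133 CPM in sham CT08 replicate 3, on either side of the median. Of 9 genes of growth hormone signalling and targets, 0 passed in edgeR (2 at an unadjusted p under 0.05) with a median log2 fold change of -0.04, and their sum was 468 to 504 CPM in the 5 libraries and 467 to 536 CPM in the others.

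Of 10 target receptors 8 were tested in edgeR and 0 passed, also at an unadjusted p under 0.05, with a median log2 fold change of -0.06. Tshr, the thyrotropin receptor, had a median of 2.10 CPM, and the melanocortin receptors Mc4r and Mc5r, which respond to peptides cut from the Pomc product, medians of 1.76 and 1.48 CPM. Prlr, the prolactin receptor, had a median of 0.832 CPM and 41.6 CPM in sham CT16 replicate 2, where Prl was 0.540 CPM. Fshr had 0 counts in 33 libraries.

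Of the remaining lists, 0 of 6 tested pituitary transcription factors, 0 of 6 receptors of releasing factors, 0 of 1 neural lobe hormone genes and 0 of 10 granule genes passed in edgeR over the mean of the times, with median log2 fold changes of 0.10, 0.14, 0.11 and 0.12. At an unadjusted p under 0.05 they held 0, 0, 0 and 4 genes. The cochlear list had 0 of 17 called and a median of -0.04, the brain list 0 of 13 and 0.09, and the erythroid list 0 of 9 and -0.17, with 1, 3 and 6 genes at an unadjusted p under 0.05, a threshold that 15.6% of all genes met. The muscle list had 1 of 15 called (background 0.718%), Mybpc2, which was higher in ADX, and a median of 1.29. ADX CT20 replicate 3 stood apart for this list, with 149 CPM of the muscle actin gene Acta1 against a median of 0.912 CPM, and its part in that median was not tested.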

How the data were processed

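RNA was sequenced from cochleae with a stranded mRNA library kit and single reads of 100 bases, per the labels' protocols. Alignment with STAR 2.4.0i to mm10 is named in the submitters' processing notes. The counting program, annotation and strand setting (not given in the sources used here) could shift counts of overlapping genes. Raw whole-number counts per Ensembl gene were deposited by the authors for 39017 genes, with a gene length for each. The names of 30 count columns carry a time 1 h earlier than the sample titles, and the titles were followed. No column belonged to a sample outside the series.

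Symbols came from GENCODE M21 (37607 of 39017 identifiers matched). CPM are counts over the total count of a library, and length-scaled values use the deposited gene length. edgeR 4.0.16 (R 4.3.3) was fitted to all 36 libraries, with filterByExpr, TMM scaling, quasi-likelihood tests, 12 group means or a cosine and sine of 24 h per status, and Benjamini-Hochberg adjustment over all 22556 genes kept, with a threshold of 0.05. The 16461 genes left out held 0.0779% of counts. Alternatives were DESeq2 1.42.0, no filter, the replicate number as a block, each library left out, and removal of the libraries of highest Gh. Fits that left out libraries used the genes kept from all 36. The tests were tried on simulated counts. Intervals are exact 95% intervals and cover counting error only.

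The members and all gene lists were chosen with earlier results of these data known. Named genes were the 8 members, the 10 genes of highest r with Gh, and up to 4 genes per list, first those called and then those of highest mean CPM. Other genes are said to be named after their values were seen, and within the receptor, target and check lists further genes are given by role. Nothing in the labels says that the 3 libraries of a group came from separate animals, so the p-values rest on a spread that may be technical. Replicates within groups had chi-square values of 5.49 to 22.7 per degree of freedom, and each was counted as its own library. The single values of 2 listed genes are not reported here.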

Additional observations from a re-analysis of the deposited data

How the results depend on the processing

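The 5 counts of called members and the fold changes were recomputed with DESeq2, DESeq2 size factors, no filter, the replicate block and each library left out. The call of 0 members over the mean of the times held in all of these fits. At single times the count was 3 with DESeq2 and 0 to 1 over the 36 fits leaving out 1 library (1 without sham CT16 replicate 1). For any difference between groups it was 0 without the 5 libraries of Gh over 50 CPM and 5 to 6 leaving out 1. For rhythm in sham it was 3 with DESeq2, 1 without the 2 libraries of highest Gh (chosen after seeing the data), 0 without the 5, and 4 to 6 leaving out 1. For rhythm in ADX it was 4 without the 2 libraries and 0 to 1 leaving out 1 (1 without sham CT16 replicate 3). The causes were not tested. Removing libraries shows only what the rest hold.

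The log2 fold changes over the mean reversed in sign without the 2 libraries of highest Gh, at 0.14 for Gh, 0.64 for Prl, 0.92 for Pomc, 1.56 for Cga, 0.95 for Fshb and 0.23 for Ghrhr. Without the 5 they were 0.52, 0.69, 0.62, 2.02, 0.95 and 0.17, with few counts left of Cga and Fshb. With DESeq2 Cga was 1.14 and Fshb 1.504. Leaving out 1 library they ran from -1.52 to -0.21 for Gh, -1.59 to 0.30 for Prl, -1.02 to 0.21 for Pomc, -0.84 to 1.25 for Cga, -1.08 to 0.72 for Fshb and -0.68 to 0.037 for Ghrhr. Pomc was also positive, at 0.02, without sham CT08 replicate 3. Of the 10 genes most like Gh, 5 were shared when ranked by Spearman's rho.

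Replicate numbers are shared by the groups, but the samples share only a number: same-numbered deviations correlated from -0.47 to 0.32 (198 pairs, median -0.01), 45 pairs exceeded 0.1, and 11 of 36 libraries correlated best with their own number. With the replicate number as a block, 0 members passed over the mean, 0 at single times, 6 for any difference, 1 (Fshb) for rhythm in sham (background 15.14%) and 0 for rhythm in ADX, and Gh had a log2 fold change of -0.96. Members with few counts (Tshb, Pou1f1, Fshb and, outside the libraries of high Gh, Cga and Ghrhr) limit what their ratios can show.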
